A study of Mus musculus and Homo sapiens with 18 samples.

Results

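The genes of cholesterol synthesis and of its control were followed through bladder carcinoma libraries of the mouse. The members were 32 genes chosen by name, of 55858 genes in the deposited mouse tables. They comprised 20 enzymes of the route from acetyl-CoA to cholesterol and its prenyl branch, 5 genes of the SREBP control system, 4 genes of sterol transport and esterification, and 3 genes of the LXR axis. All 32 passed the filter on low counts in both comparisons.

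The libraries used fall into 4 groups of 3 and were prepared from poly(A)-selected RNA with a stranded kit. The tumour groups came from a GEMM, a mouse line engineered to develop cancer, here of the bladder. Relapsed tumours carried the treatment label chemotherapy, which the protocol gives as cisplatin with gemcitabine, and control tumours carried the label control, for which the protocol names a vehicle. The cell groups were of the murine line CUUC-G, labelled as of GEMM origin, and carried the guide sgIgfbp5, which targets Igfbp5, or the scrambled guide sgScr. The labels call the sgIgfbp5 libraries knockdowns, whereas the series design speaks of a knockout. The alleles of the GEMM, the strain, sex and age of the mice, and whether the edited line was a pool or a clone are not given in the sources used here. Human MGHU3 libraries of the same series were not analysed here.

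Cholesterol is built from acetyl-CoA. Cytosolic acetyl-CoA units are condensed to mevalonate and turned into isoprenoid diphosphates, from which squalene is made. Squalene is closed to lanosterol, and a chain of demethylations, reductions and isomerisations turns lanosterol into cholesterol. When membranes of the endoplasmic reticulum are poor in sterol, the escort protein SCAP carries the transcription factors SREBP-1 and SREBP-2 to the Golgi, where proteases release them to switch on these genes, and INSIG proteins hold the complex back when sterol is plentiful. Oxysterols, in turn, activate the nuclear receptors LXR-alpha and LXR-beta, which favour sterol export.

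Promoter sequence was taken from the RefSeq table on GRCm38.p6, which held 36 windows for 27 of the 32 genes and none for Npc1, Fdps, Stard4, Fdft1 and Sqle. The windows of 4 genes are shown, each with the 250 bases before the annotated start, 5′ to 3′ on the strand of the gene. In GENCODE M21 on the same build, Idi1 begins at 8885501 and Insig1 at 28071363, within the windows shown. Hmgcs1 begins there at 119690379, some bases past the end of its window. RefSeq and GENCODE thus differ on these starts. The genes shown are Hmgcs1, Idi1, Insig1 and Ggps1. Hmgcs1 was the only member whose window matched the sterol regulatory element searched here. Idi1 and Insig1 differed most among the enzymes and among the control genes, and Ggps1 was the enzyme past the threshold in neither comparison. Capitals mark matches to the sterol regulatory element TCACNCCAC or to the CCAAT box, CCAAT, on either strand.
Hmgcs1 (chr13:119690101-119690350, plus strand): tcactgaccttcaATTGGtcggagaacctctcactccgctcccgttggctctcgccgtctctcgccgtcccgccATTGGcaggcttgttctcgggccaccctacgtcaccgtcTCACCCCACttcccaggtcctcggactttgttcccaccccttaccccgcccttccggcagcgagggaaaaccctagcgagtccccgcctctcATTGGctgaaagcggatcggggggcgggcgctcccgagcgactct
Idi1 (chr13:8885356-8885605, plus strand): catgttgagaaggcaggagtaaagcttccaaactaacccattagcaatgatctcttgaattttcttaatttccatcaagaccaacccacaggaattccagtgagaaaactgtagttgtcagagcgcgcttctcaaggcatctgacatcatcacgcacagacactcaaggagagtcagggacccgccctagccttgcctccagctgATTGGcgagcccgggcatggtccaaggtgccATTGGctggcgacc
Insig1 (chr5:28071162-28071411, plus strand): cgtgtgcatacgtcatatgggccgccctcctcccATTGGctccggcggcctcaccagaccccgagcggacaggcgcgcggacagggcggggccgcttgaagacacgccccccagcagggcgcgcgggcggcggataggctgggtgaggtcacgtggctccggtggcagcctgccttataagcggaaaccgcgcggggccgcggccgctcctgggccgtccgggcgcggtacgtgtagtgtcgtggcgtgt
Ggps1 (chr13:14063489-14063738, minus strand): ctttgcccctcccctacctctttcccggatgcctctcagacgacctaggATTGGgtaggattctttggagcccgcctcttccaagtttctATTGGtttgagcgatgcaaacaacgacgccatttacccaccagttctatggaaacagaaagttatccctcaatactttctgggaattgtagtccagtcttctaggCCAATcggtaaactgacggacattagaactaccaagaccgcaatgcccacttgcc

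The sterol element was found in 1 of the 36 member windows, and in 1.05% of all 32851 windows of this length. It lay in Hmgcs1 from base -137 to base -129 before the RefSeq start. CCAAT was found in 24 of 36 member windows (66.7%), against 33.8% of all windows and 35.7% of the 13504 windows of genes tested in the tumours. The GC box GGGCGG, on either strand, was found in 25 of 36 (69.4%), against 32.7% of all windows and 56.8% of those of tested genes. The E box CACGTG was found in 5 of 36 (13.9%), against 6.02% and 8.13%. Ggps1 held 3 CCAAT matches, more than Idi1 with 2 and Insig1 with 1, so the presence of CCAAT did not separate the enzyme that was past neither threshold from the others shown. No pair of matches to different motifs shared a base in the 4 windows shown. The matches are letters in a window, and no binding was measured.

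The libraries were even in depth, with 18964942 to 21757109 estimated counts in the tumours and 19210830 to 20729980 in CUUC-G. Igfbp5 was low throughout. Its level was 0.143, 0.0926 and 0.117 TPM (transcript abundance scaled for length and depth) in the sgIgfbp5 libraries, against 0.246, 0.572 and 0.511 TPM with sgScr. The groups did not overlap, and the log2 fold change was -2.0 ± 0.42 (SE, n = 3 each; edgeR adjusted p = 0.00125), on 30 counts against 114. In relapsed tumours Igfbp5 was higher than in control tumours, with a log2 fold change of 2.44 ± 0.44 (edgeR adjusted p = 1.97e-05). Relapsed tumours were nearly alike to sgScr CUUC-G cells, with r of log2 values of 0.985 to 0.99 between libraries over 13126 genes, against 0.883 to 0.885 between relapsed and control tumours. The 2 comparisons therefore share nearly the same end, from opposite sides, and are not independent of each other. Libraries of sgIgfbp5 cells were less like those of sgScr cells (r of 0.864 to 0.87) than those of control tumours (0.895 to 0.908). Fold changes of the 2 comparisons had a Pearson r of -0.669 over the 13904 genes tested in both and -0.841 over the 32 members. Opposite movement was thus common among all genes. Summed levels of the Y-linked genes Ddx3y, Eif2s3y, Kdm5d and Uty were 0.0961 to 0.166 TPM in relapsed and 101 to 109 TPM in control tumours. They were 0.0938 to 0.221 TPM with sgIgfbp5 and 0.097 to 0.167 TPM with sgScr, near those of relapsed tumours. The tumour groups therefore also differ in whether Y-linked genes were expressed, which cannot be told apart from relapse. The labels enter GEMM under cell line and the protocol speaks of harvested tumours, so whether the RNA of the libraries called tumours here came from tissue or from cultured cells is not settled by the sources used here. The tissue label was checked as well. All 11 leukocyte markers had means under 1 TPM in every group, with Cd3e and Tyrobp among those at 0 throughout, and the urothelial markers Krt5 and Upk3a were at 0 throughout. The urothelial markers Upk1b and Pparg averaged 1 TPM or more in every group, and Krt8, Krt18 and Cdh1 did so in all but control tumours. Summed over the lists, 8 fibroblast markers lay at 1720 to 1738 TPM in relapsed and 3721 to 3848 TPM in control tumours, and at 1026 to 1151 TPM with sgIgfbp5 and 1635 to 1785 TPM with sgScr. By edgeR at an adjusted p under 0.05, 4 of them were higher and 4 lower at relapse, against 36.6% and 36.9% of all genes. With sgIgfbp5, 2 of the 7 tested were higher and 5 lower, against 36.5% and 34.3% of all genes. The sums therefore do not stand for every marker. The 14 urothelial markers lay at 313 to 333 TPM in relapsed and 18.3 to 21.2 TPM in control tumours, and at 98.1 to 113 TPM with sgIgfbp5 and 310.5 to 322 TPM with sgScr. At the same threshold, 4 of the 8 tested at relapse were higher and 1 lower. With sgIgfbp5, 4 of the 9 tested were higher and 4 lower, near the shares of all genes. Median log2 fold changes of this list were 1.515 at relapse and 0.46 with sgIgfbp5, so the lower sum with sgIgfbp5 does not stand for every marker. Of 7 endothelial markers, Kdr alone reached a mean of 1 TPM, in relapsed tumours and both CUUC-G groups, and their sum was 37.7 to 41.0 TPM in relapsed and 1.502 to 1.669 TPM in control tumours, and 3.37 to 4.28 TPM with sgIgfbp5 and 34.7 to 38.4 TPM with sgScr. The part of these differences in the results below was not tested.

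The cholesterol genes were higher in relapsed than in control tumours along nearly the whole route. Of 32 members, 28 rose at relapse, Npc1 fell, and Ggps1, Nr1h2 and Nr1h3 were not past the threshold, an adjusted p of 0.05 by edgeR's quasi-likelihood test over all 14373 genes tested. Among all genes tested, 73.5% were called, 36.6% higher and 36.9% lower, so a call alone is common in these data. The median log2 fold change of the members was 1.4, against 0.00 over all genes tested. At least 2-fold higher were 22 of the 32 members, against 13.2% of all genes. Adjusted p-values of the 28 ran from 4.69e-29 for Idi1 to 0.000107 for Mylip. The CPM, counts scaled to library size, of the groups did not overlap for 29 members, against 75.3% of all genes (37.5% higher and 37.8% lower in relapsed tumours).

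With sgIgfbp5 the same route was lower. Of 32 members, 27 fell, Npc1, Nr1h2, Nr1h3 and Mylip rose, and Ggps1 was not past the threshold. Of the 14553 genes tested there, 70.8% were called, 34.3% lower and 36.5% higher. The median log2 fold change of the members was -1.74, against 0.06 over all genes tested. At least 2-fold lower were 20 members, against 16.8% of all genes. Nr1h3 was at least 2-fold higher, against 14.6% of all genes. The CPM did not overlap for 31 members, against 73.9% of all genes (38.1% higher and 35.8% lower with sgIgfbp5). Every member that fell with sgIgfbp5 had risen at relapse, 27 in number, whereas this pair of calls was made for 24.7% of the 13904 genes tested in both. Because labels do not say whether the 3 libraries of a group came from separate animals or cultures, the p-values measure only the spread between these libraries. In bulk RNA, fewer cells that make a transcript and less transcript per cell cannot be told apart.

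**Figure D1:**
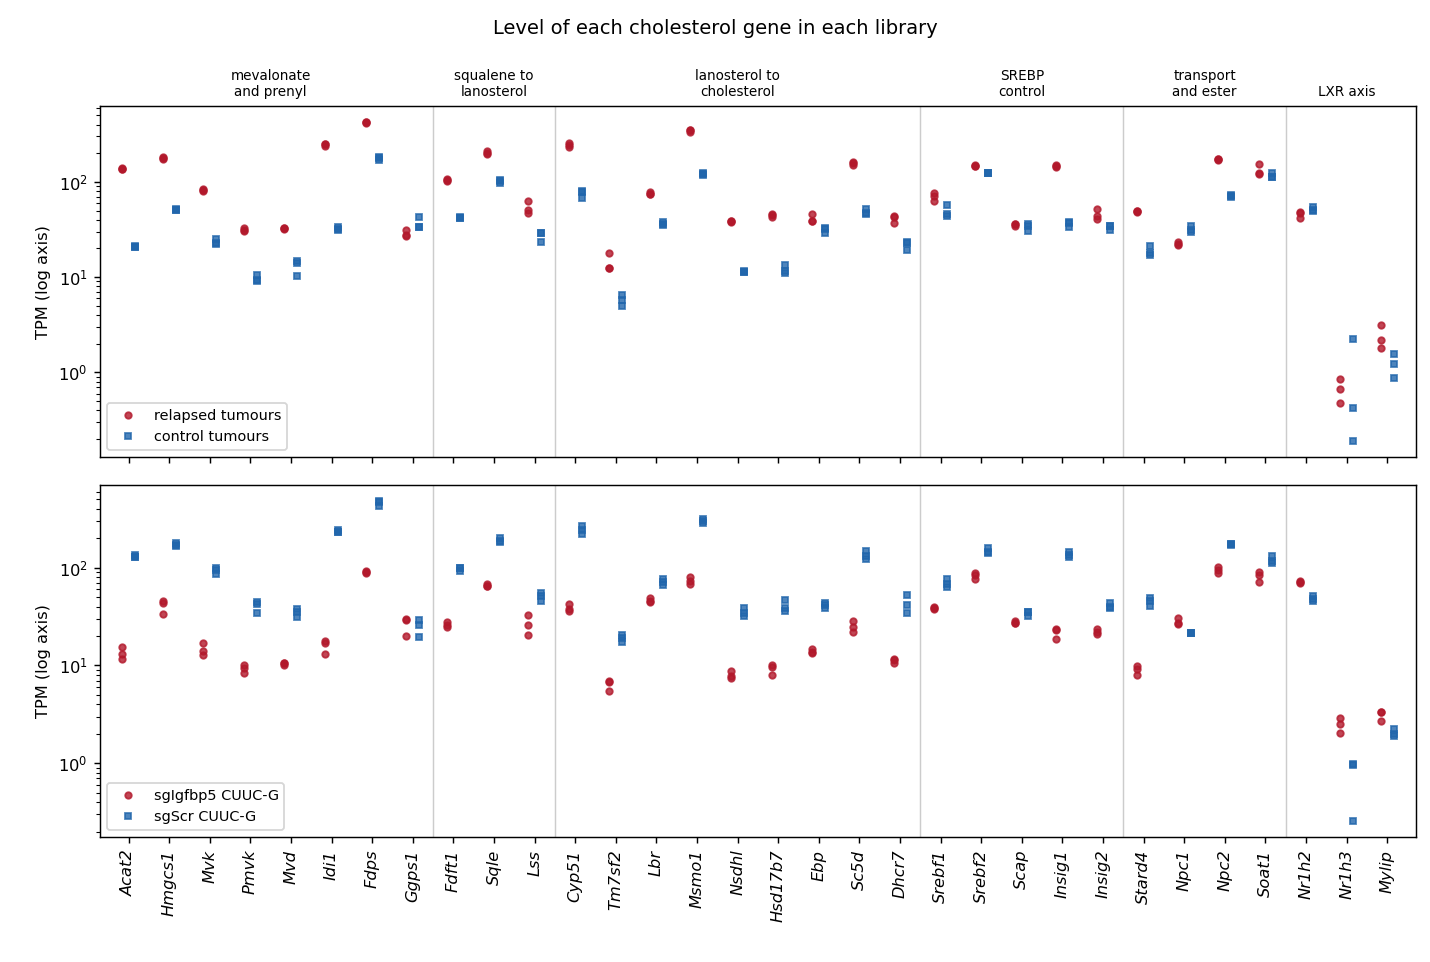
TPM of each of the 32 genes in each library on a log axis, in pathway order, with relapsed and control tumours above and sgIgfbp5 and sgScr CUUC-G below. Each point is a library. Most enzymes lie higher in relapsed than in control tumours and lower in sgIgfbp5 than in sgScr cells, while the points of Ggps1 stay close together.

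The summed level of the 20 enzymes of synthesis was 2548, 2505 and 2505 TPM in relapsed tumours, against 891.9, 902.6 and 903.4 TPM in control tumours. It was 569.9, 554.0 and 592.1 TPM with sgIgfbp5, against 2524, 2448 and 2406 TPM with sgScr. In neither comparison did the groups come near each other. Of the 20 enzymes, 19 were called in the same direction as the sum, with Ggps1 the exception in each. Among all genes tested, 36.6% were called higher at relapse and 34.3% lower with sgIgfbp5.

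After Idi1, the enzyme at the entry to the pathway differed most. Acat2, the cytosolic thiolase that joins a pair of acetyl-CoA units, had 136.8, 138.2 and 136.2 TPM in relapsed tumours, against 20.88, 20.89 and 21.35 TPM in control tumours. Its log2 fold change was 2.83 ± 0.05 (SE, n = 3 each; edgeR adjusted p = 1.55e-27), a 7.10-fold difference. With sgIgfbp5 it had 13.1, 15.4 and 11.7 TPM, against 134.6, 128.9 and 129.7 TPM with sgScr, a log2 fold change of -3.37 ± 0.11. The libraries of each group lay close together and far from the other group in both comparisons. The paralogue Acat3, which shares sequence with Acat2, had means under 1 TPM in every group, and Acat1, the mitochondrial thiolase, differed by 0.23 ± 0.05 at relapse and by -1.43 ± 0.09 with sgIgfbp5 on the log2 scale.

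Hmgcs1, which adds a further acetyl unit to form HMG-CoA and whose promoter carries the sterol element shown above, had 183.5, 174.3 and 179.4 TPM in relapsed tumours, against 50.5, 50.8 and 51.9 TPM in control tumours. In CUUC-G it had 45.5, 33.9 and 43.3 TPM with sgIgfbp5, against 180.8, 165.4 and 170.6 TPM with sgScr. Its log2 fold changes were 1.97 ± 0.04 and -2.27 ± 0.09. The kinases Mvk and Pmvk, which phosphorylate mevalonate in turn, and Mvd, which decarboxylates the product, changed with it. Relapsed tumours averaged 82.3 ± 2.43 TPM of Mvk, 31.5 ± 1.24 TPM of Pmvk and 32.5 ± 0.439 TPM of Mvd, against 23.4 ± 1.63, 9.66 ± 0.844 and 13.0 ± 2.44 TPM in control tumours (SD, n = 3 each). In CUUC-G the same genes averaged 14.6 ± 2.03, 9.27 ± 0.823 and 10.4 ± 0.322 TPM with sgIgfbp5, against 93.3 ± 7.14, 40.5 ± 5.68 and 35.0 ± 3.50 TPM with sgScr. Every one of these groups was clear of its counterpart. The corresponding log2 fold changes were 1.96 ± 0.07, 1.84 ± 0.11 and 1.45 ± 0.10 at relapse and -2.58 ± 0.12, -2.20 ± 0.15 and -1.81 ± 0.12 with sgIgfbp5.

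Idi1, the isomerase that interconverts the basic isoprenoid diphosphates, had the largest change of all 32 members in each comparison. It had 239.7, 246.9 and 251.7 TPM in relapsed tumours, against 33.7, 31.9 and 31.6 TPM in control tumours. With sgIgfbp5 it had 17.7, 13.1 and 17.0 TPM, against 242.4, 231.1 and 230.8 TPM with sgScr. The log2 fold changes were 3.05 ± 0.04 and -3.94 ± 0.10 (edgeR adjusted p = 4.69e-29 and 1.30e-10), or 8.28-fold higher and 15.3-fold lower. Among all genes ranked by size of change, it was number 452 of those higher at relapse and number 390 of those lower with sgIgfbp5. The processed copy Idi1-ps1 was given 34.5, 20.9 and 14.2 TPM in relapsed tumours, against 0, 4.59 and 0 TPM in control tumours, and 0 TPM in all CUUC-G libraries. Reads of such a copy can be shared with its parent, and with both summed the TPM ratio of relapsed to control tumours was 7.94, against 7.59 for Idi1 alone.

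The prenyl branch point divided. Fdps, which makes farnesyl diphosphate, had the highest TPM of the members in relapsed tumours, control tumours and sgScr cells. Its level was 427.2, 421.1 and 417.0 TPM in relapsed tumours, against 178.3, 170.8 and 183.9 TPM in control tumours, and 88.3, 89.6 and 91.8 TPM with sgIgfbp5, against 431.1, 469.5 and 476.6 TPM with sgScr. On the log2 scale its changes were 1.39 ± 0.04 and -2.42 ± 0.09. Ggps1 takes farnesyl diphosphate out of the sterol route to make geranylgeranyl diphosphate for protein prenylation. It had 27.0, 31.1 and 27.5 TPM in relapsed tumours, against 33.7, 42.4 and 33.6 TPM in control tumours, and 30.0, 19.9 and 29.2 TPM with sgIgfbp5, against 28.9, 26.2 and 19.4 TPM with sgScr. Its log2 fold changes from the counts were 0.01 ± 0.07 (edgeR adjusted p = 0.886) and -0.28 ± 0.14 (adjusted p = 0.0962). On log2(TPM + 1) limma gave -0.34 at relapse (adjusted p = 0.0259), and with sgIgfbp5 DESeq2 gave -0.33 with an adjusted p of 0.0333, so its call depended on the method. Its TPM did not overlap between relapsed and control tumours, while its CPM did, and in CUUC-G both overlapped. The call with sgIgfbp5 was also made by edgeR with RLE scaling (adjusted p = 0.0283), without the count filter (adjusted p = 0.0158) and without sgIgfbp5 replicate 1 (log2 fold change -0.44, adjusted p = 0.00613).

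The 3 enzymes from farnesyl diphosphate to lanosterol all rose at relapse and fell with sgIgfbp5, as did 24.7% of genes tested in both. Fdft1, the squalene synthase and the first enzyme committed to sterols, had 102.4, 105.8 and 106.1 TPM in relapsed tumours, against 41.7, 42.9 and 41.9 TPM in control tumours. With sgIgfbp5 it had 25.01, 27.91 and 26.01 TPM, against 99.5, 93.5 and 99.5 TPM with sgScr. On the log2 scale it differed by 1.41 ± 0.04 and -1.96 ± 0.08. Fdft1 shares 774 bases with Ctsb on the opposite strand, and whether strand was used in the counting is not given in the sources used here. Sqle, the squalene epoxidase, averaged 200.8 ± 6.91 TPM in relapsed and 100.9 ± 2.83 TPM in control tumours, and 66.0 ± 2.11 TPM with sgIgfbp5 and 190.5 ± 8.15 TPM with sgScr. Lss, which closes the ring system to lanosterol, averaged 54.0 ± 8.36 TPM in relapsed and 27.2 ± 3.26 TPM in control tumours, and 26.4 ± 6.15 TPM with sgIgfbp5 and 51.1 ± 4.90 TPM with sgScr. By log2 fold change, Sqle differed by 1.12 ± 0.04 and -1.60 ± 0.06, and Lss by 1.13 ± 0.04 and -1.40 ± 0.08.

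All 9 enzymes from lanosterol to cholesterol rose at relapse and fell with sgIgfbp5, against 24.7% of genes tested in both. Cyp51, the demethylase that acts on lanosterol, had 244.5, 230.7 and 254.0 TPM in relapsed tumours, against 78.3, 80.4 and 68.3 TPM in control tumours. With sgIgfbp5 it had 36.4, 42.5 and 37.4 TPM, against 264.9, 245.9 and 223.0 TPM with sgScr. Its log2 fold change was 1.78 ± 0.03 at relapse and -2.53 ± 0.07 with sgIgfbp5. Msmo1, an oxidase that helps to remove methyl groups from the sterol ring, had 349.6, 351.2 and 335.8 TPM in relapsed tumours, against 118.7, 121.7 and 123.6 TPM in control tumours, and 79.8, 67.5 and 73.7 TPM with sgIgfbp5, against 314.9, 287.4 and 298.4 TPM with sgScr. It was second to Fdps in relapsed tumours and in sgScr cells. Its partners Nsdhl and Hsd17b7 complete the removal. Nsdhl had 38.4, 38.5 and 39.3 TPM in relapsed tumours, against 11.5, 11.3 and 11.2 TPM in control tumours, and 7.78, 7.45 and 8.87 TPM with sgIgfbp5, against 38.88, 34.66 and 31.70 TPM with sgScr. Hsd17b7 had 44.5, 45.5 and 43.2 TPM in relapsed tumours, against 11.1, 13.6 and 11.7 TPM in control tumours, and 9.61, 8.03 and 10.02 TPM with sgIgfbp5, against 46.5, 38.9 and 36.0 TPM with sgScr. None of these groups overlapped its counterpart, and Nsdhl and Hsd17b7 differed by 1.89 ± 0.07 and 1.87 ± 0.06 at relapse and by -2.20 ± 0.10 and -2.30 ± 0.08 with sgIgfbp5 on the log2 scale.

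Reduction of the double bond left by Cyp51 can be carried out by Tm7sf2 or by Lbr, the lamin B receptor. Both genes were called in each comparison, as were 73.5% of all genes at relapse and 70.8% with sgIgfbp5. Tm7sf2 had 12.5, 12.5 and 17.9 TPM in relapsed tumours, against 6.48, 5.73 and 4.97 TPM in control tumours, and 5.48, 6.84 and 6.96 TPM with sgIgfbp5, against 19.2, 17.5 and 20.3 TPM with sgScr. Lbr had 79.1, 75.5 and 73.8 TPM in relapsed tumours, against 36.5, 34.9 and 38.0 TPM in control tumours, and 45.2, 44.5 and 48.8 TPM with sgIgfbp5, against 76.9, 71.0 and 66.2 TPM with sgScr. The log2 fold changes of Tm7sf2 were 1.58 ± 0.17 and -1.75 ± 0.15, and those of Lbr were 1.2 ± 0.04 and -0.79 ± 0.07, the smallest decrease among the 19 enzymes that fell with sgIgfbp5. The difference between these genes was not tested. Per length, Lbr was the more abundant in every group. Tm7sf2 shares 532 bases with Vps51 on the same strand, which averaged 42.9 TPM in relapsed and 29.4 TPM in control tumours.

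Ebp, a sterol isomerase, showed the opposite imbalance. It had 46.1, 39.1 and 38.8 TPM in relapsed tumours, against 28.8, 32.2 and 32.8 TPM in control tumours, a log2 fold change of 0.49 ± 0.07 that was the smallest rise among the 19 enzymes. In sgIgfbp5 cells it had 13.7, 14.9 and 13.6 TPM, against 39.0, 44.0 and 41.9 TPM with sgScr, a log2 fold change of -1.59 ± 0.10. The groups did not overlap in either comparison, but the step at relapse was small beside that of its neighbours. Sc5d, a sterol desaturase, averaged 156.4 ± 5.82 TPM in relapsed and 48.6 ± 3.10 TPM in control tumours, and 25.1 ± 3.26 TPM with sgIgfbp5 and 134.4 ± 12.2 TPM with sgScr. Dhcr7, a reductase that ends the route in cholesterol, averaged 41.1 ± 3.67 TPM in relapsed and 21.8 ± 2.18 TPM in control tumours, and 11.2 ± 0.519 TPM with sgIgfbp5 and 42.9 ± 9.12 TPM with sgScr. The log2 fold changes were 1.81 ± 0.04 and -2.42 ± 0.07 for Sc5d and 1.27 ± 0.07 and -1.74 ± 0.09 for Dhcr7. Ebp and Nsdhl lie on the X chromosome, and the other enzymes on autosomes.

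**Figure D2:**
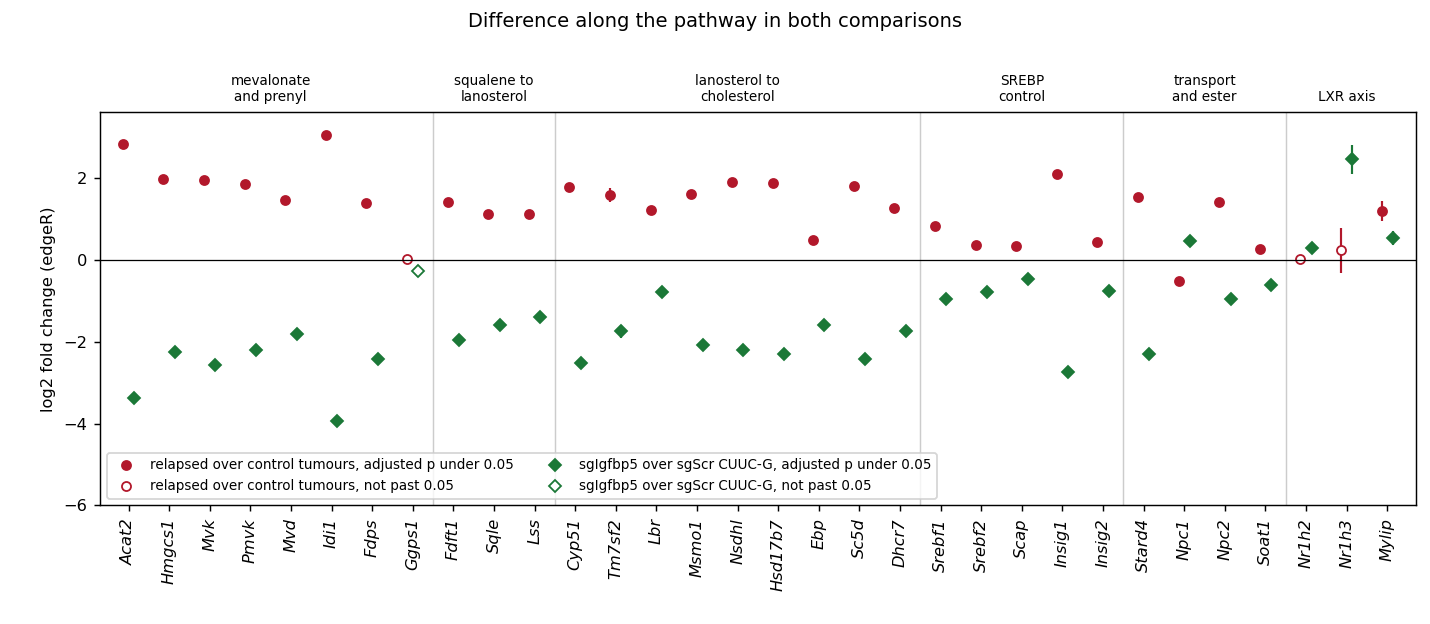
Log2 fold change with its standard error for each member in pathway order, for relapsed over control tumours (circles) and for sgIgfbp5 over sgScr CUUC-G (diamonds), with open symbols where the adjusted p was not under 0.05. Idi1 and Acat2 lie farthest from 0 in both comparisons, Ggps1 lies near 0, and the genes of the SREBP machinery other than Insig1 lie closer to 0 than most enzymes.

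All 5 genes of the control system rose at relapse and fell with sgIgfbp5, Insig1 by the most. This pair of calls was made for 24.7% of genes tested in both. Insig1, which retains SCAP in the endoplasmic reticulum and is itself a known SREBP target, had 142.7, 146.7 and 152.0 TPM in relapsed tumours, against 38.3, 33.9 and 37.1 TPM in control tumours. In sgIgfbp5 cells it had 23.5, 18.6 and 22.8 TPM, against 144.1, 135.8 and 129.1 TPM with sgScr. Its log2 fold changes were 2.10 ± 0.05 and -2.73 ± 0.09, 4.28-fold higher and 6.64-fold lower. Insig2, its paralogue, averaged 45.6 ± 5.55 TPM in relapsed and 33.4 ± 1.99 TPM in control tumours, and 22.0 ± 1.29 TPM with sgIgfbp5 and 40.8 ± 2.14 TPM with sgScr, with log2 fold changes of 0.44 ± 0.06 and -0.77 ± 0.11. The INSIG genes thus moved the same way by different amounts.

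The transcription factors themselves rose modestly at relapse. Srebf2, which encodes the SREBP that mainly drives sterol genes, had 148.2, 148.2 and 150.3 TPM in relapsed tumours, against 123.8, 124.2 and 122.6 TPM in control tumours, a log2 fold change of 0.35 ± 0.03. It had 76.5, 84.1 and 87.5 TPM with sgIgfbp5, against 160.3, 146.0 and 142.2 TPM with sgScr, a log2 fold change of -0.78 ± 0.07. Srebf1, whose products mainly drive fatty acid genes, had 71.4, 63.6 and 75.9 TPM in relapsed tumours, against 57.0, 43.7 and 46.2 TPM in control tumours, and 38.9, 37.5 and 39.4 TPM with sgIgfbp5, against 76.5, 63.8 and 67.9 TPM with sgScr. For Srebf1 the log2 fold changes were 0.82 ± 0.05 and -0.97 ± 0.07. Scap differed by 0.34 ± 0.05 and -0.47 ± 0.08. At relapse its TPM overlapped between the groups, with 35.8, 35.9 and 34.1 TPM in relapsed tumours, against 34.4, 30.6 and 35.9 TPM in control tumours, and limma on log2(TPM + 1) gave a difference of 0.07 (adjusted p = 0.42). In these files only transcript was measured, not the processing of SREBP protein.

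Sterol transport split by gene. Stard4, a soluble carrier of cholesterol between membranes, had 49.36, 49.96 and 48.26 TPM in relapsed tumours, against 17.1, 18.0 and 21.2 TPM in control tumours, and 9.92, 8.0 and 9.14 TPM with sgIgfbp5, against 48.8, 45.4 and 40.9 TPM with sgScr. Its log2 fold changes, 1.52 ± 0.05 and -2.30 ± 0.09, were of the size seen for the enzymes. Npc2, which hands sterol to Npc1 inside the lysosome, averaged 173.3 ± 1.79 TPM in relapsed and 71.4 ± 1.80 TPM in control tumours, and 95.2 ± 7.12 TPM with sgIgfbp5 and 174.5 ± 1.90 TPM with sgScr. For Npc2 the log2 fold changes were 1.42 ± 0.04 and -0.97 ± 0.08.

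Npc1, which moves that cholesterol out across the lysosomal membrane, went the other way. It had 23.4, 21.9 and 22.5 TPM in relapsed tumours, against 29.5, 34.1 and 31.4 TPM in control tumours, and it was the only member that fell at relapse, by 0.52 on the log2 scale (SE 0.05; edgeR adjusted p = 1.44e-10). In sgIgfbp5 cells it had 27.4, 26.9 and 30.5 TPM, against 21.7, 21.6 and 21.2 TPM with sgScr, a log2 fold change of 0.45 ± 0.10 (adjusted p = 0.0016). The partners Npc1 and Npc2 therefore moved in opposite directions in each comparison. Calls of lower at relapse and higher with sgIgfbp5 were made for 23.0% of genes. Soat1, which esterifies cholesterol for storage, differed little, with log2 fold changes of 0.27 ± 0.04 and -0.61 ± 0.06. It averaged 133.5 ± 17.4 TPM in relapsed and 115.5 ± 7.05 TPM in control tumours, and 82.3 ± 9.26 TPM with sgIgfbp5 and 120.5 ± 9.88 TPM with sgScr. At relapse limma on log2(TPM + 1) gave 0.20 (adjusted p = 0.104).

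The LXR axis did not follow the synthesis genes. Nr1h2, which encodes LXR-beta, had 42.1, 47.2 and 47.7 TPM in relapsed tumours, against 54.1, 51.1 and 49.8 TPM in control tumours, with a log2 fold change from the counts of 0.02 ± 0.06 (edgeR adjusted p = 0.751). On log2(TPM + 1) limma gave -0.17 (adjusted p = 0.0477). In sgIgfbp5 cells it had 71.5, 69.6 and 72.6 TPM, against 47.9, 51.1 and 46.0 TPM with sgScr, a log2 fold change of 0.30 ± 0.08 (adjusted p = 0.00728). Nr1h3, which encodes LXR-alpha, was near the limit of detection in the tumours, with 0.482, 0.672 and 0.846 TPM in relapsed tumours, against 0.189, 2.23 and 0.424 TPM in control tumours. Its 43 counts over the relapsed and 36 over the control tumours gave overlapping groups and an edgeR adjusted p of 0.714. In sgIgfbp5 cells it had 2.05, 2.88 and 2.51 TPM, against 0.988, 0.256 and 0.958 TPM with sgScr, a log2 fold change of 2.45 ± 0.36 (adjusted p = 8.07e-05) on 118 counts against 20. Mylip, an LXR target whose product marks lipoprotein receptors for degradation, was the only member called higher in both comparisons. It had 1.82, 2.19 and 3.15 TPM in relapsed tumours, against 1.56, 0.869 and 1.22 TPM in control tumours, and 3.32, 2.68 and 3.32 TPM with sgIgfbp5, against 1.91, 1.99 and 2.25 TPM with sgScr. For Mylip the log2 fold changes were 1.18 ± 0.25 and 0.52 ± 0.17. The call with sgIgfbp5 was lost with DESeq2 (adjusted p = 0.0826), and when sgIgfbp5 replicate 1 or 3 or sgScr replicate 1 or 2 was left out of the edgeR fit (adjusted p between 0.0546 and 0.0649). With limma on log2(TPM + 1) without a TPM filter, Mylip was past the threshold in neither comparison, with 0.60 at relapse (adjusted p = 0.0825) and 0.43 with sgIgfbp5 (adjusted p = 0.0929).

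**Figure D3:**
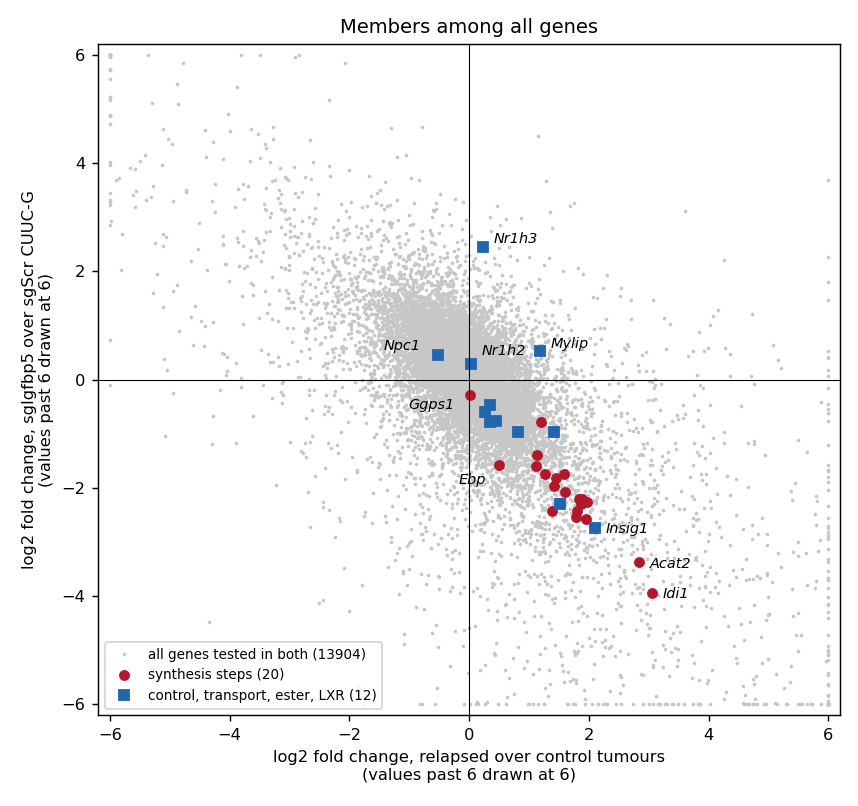
Log2 fold change of relapsed over control tumours (horizontal) and of sgIgfbp5 over sgScr CUUC-G (vertical), with the 20 enzymes as circles, the other 12 members as squares and the 13904 genes tested in both in grey. The enzymes other than Ggps1 lie at the lower right with many other genes, and Npc1 and Mylip lie elsewhere.

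By step, the median log2 fold change at relapse was 1.90 for the 8 genes of the mevalonate and prenyl part, 1.13 for the 3 genes up to lanosterol, 1.60 for the 9 genes up to cholesterol, 0.44 for the 5 control genes, 0.84 for the 4 transport and ester genes and 0.23 for the 3 LXR axis genes. With sgIgfbp5 the medians were -2.34, -1.60, -2.08, -0.78, -0.79 and 0.52 in the same order. The ranges of the synthesis steps overlapped in both comparisons, and differences between steps were not tested. Levels in relapsed tumours were close to those in sgScr cells, with TPM ratios of 0.751 for Tm7sf2 to 1.16 for Sc5d, a median of 1.05. The low ends were less alike. The TPM of sgIgfbp5 cells over that of control tumours had a median of 0.712 and was below 1 for 26 of 32 members, from 0.449 for Ebp to 2.61 for Nr1h3. The tumour and CUUC-G tables were normalized separately, so these ratios are descriptions.

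The order of levels within the pathway also differed between groups. In relapsed tumours Fdps, Msmo1, Idi1 and Cyp51 had the highest TPM, with Idi1 and Cyp51 overlapping across libraries. In control tumours Srebf2 and Soat1 stood among the 4 highest, with Srebf2 overlapping Msmo1, and Idi1, at 32.4 ± 1.10 TPM, was number 18. In sgIgfbp5 cells Npc2, at 95.2 ± 7.12 TPM, and Fdps, at 89.9 ± 1.76 TPM, overlapped at the top. Nr1h3 and Mylip were the lowest in all 4 groups.

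The tumour table also gave transcripts, 217 of them for the 32 members, and the shares of some differed between the groups. Those described below are examples. Others differed too, with a wide spread between libraries. Dhcr7-202 made up 72.3 ± 9.81% of its gene in relapsed and 61.3 ± 8.88% in control tumours, and Insig2-208 made up 12.3 ± 5.50% and 23.7 ± 10.2%. For Npc1, the coding transcript Npc1-201 had 17.6, 17.3 and 18.8 TPM in relapsed tumours, against 29.4, 31.4 and 31.4 TPM in control tumours. The retained-intron transcript Npc1-206 had 5.45, 4.54 and 3.70 TPM in relapsed tumours, against 0, 2.78 and 0 TPM in control tumours. The coding transcript made up 79.3 ± 4.24% of the gene's TPM at relapse, against 97.1 ± 4.52% in control tumours (SD, n = 3 each). The gap in coding transcript was thus wider than the gap in the summed gene. Npc1 shares 4908 bases with the antisense gene Gm15956 and 967 with Rmc1 on the opposite strand, at 1.47 and 28.9 TPM in relapsed and 0.242 and 35.4 TPM in control tumours.

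For Ggps1, whose summed counts were nearly equal, the main coding transcript Ggps1-201 had 15.9, 16.2 and 17.4 TPM in relapsed tumours, against 17.1, 17.6 and 14.8 TPM in control tumours. Transcripts annotated for nonsense-mediated decay summed to a mean of 1.87 TPM in relapsed and 5.77 TPM in control tumours, and Ggps1-203, without a defined coding sequence, averaged 0.717 TPM in relapsed and 3.90 TPM in control tumours. All coding transcripts of Ggps1 together averaged 26.0 TPM in relapsed and 26.9 TPM in control tumours. Most of the gap in the summed TPM of this gene therefore lay in transcripts that are not annotated as coding or are marked for decay. Hsd17b7-204, without a defined coding sequence, made up 12.4% of its gene in relapsed and 3.87% in control tumours, and the retained-intron transcript Insig1-202 made up 4.86% and 1.53%. These shares are Salmon estimates between transcripts with shared exons and were not tested.

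**Figure D4:**
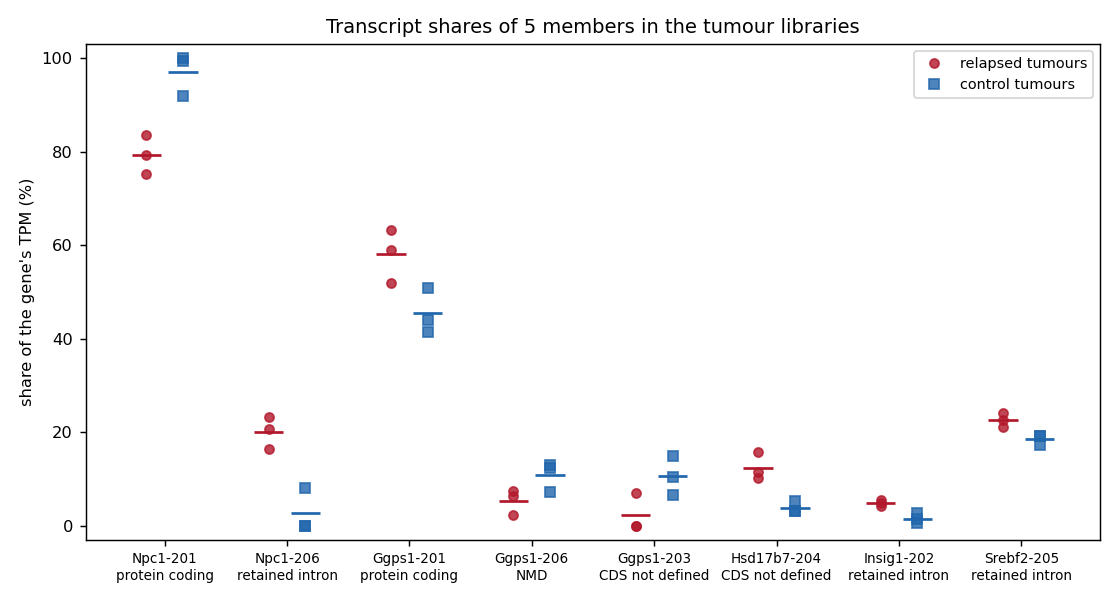
Share of the gene's TPM, in percent, held by 8 transcripts of 5 members in each relapsed and control tumour library, with bars at the group means. The share of Npc1-201 was 75.1% to 83.6% in relapsed and 91.9% to 100% in control tumours.

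A further 6 lists placed the members among neighbouring pathways. Their counts are to be read against all genes tested, of which 36.6% were called higher and 36.9% lower at relapse, and 36.5% higher and 34.3% lower with sgIgfbp5. Fatty acid genes that SREBP is known to drive went with the synthesis genes, with 11 of 12 higher at relapse and 11 of 12 lower with sgIgfbp5, and Gpam the exception in both. Their median log2 fold changes were 0.95 and -1.31. Elovl6, a fatty acid elongase, had 33.8, 32.2 and 34.3 TPM in relapsed tumours, against 8.19, 10.5 and 7.36 TPM in control tumours, and 5.02, 3.73 and 4.47 TPM with sgIgfbp5, against 34.0, 27.8 and 24.3 TPM with sgScr. The desaturase gene Fads2 differed by 1.60 ± 0.04 and -2.44 ± 0.08 on the log2 scale, and Me1, a source of NADPH, by 0.76 ± 0.03 and -1.84 ± 0.07. Of the genes that supply acetyl-CoA, 4 of 6 tested rose and 1 fell at relapse, and 5 of 7 fell and 1 rose with sgIgfbp5, with medians of 0.56 and -0.83, against 36.6% higher at relapse and 34.3% lower with sgIgfbp5 among all genes. Among them were Aacs, which activates acetoacetate (1.35 ± 0.04 and -1.65 ± 0.07), the citrate carrier Slc25a1 (1.27 ± 0.05 and -1.41 ± 0.09) and Acly, which splits citrate (0.90 ± 0.03 and -0.78 ± 0.06).

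Of 17 genes that use the prenyl products downstream of Fdps and Ggps1, 11 rose and 2 fell at relapse, against 36.6% and 36.9% of all genes, with a median log2 fold change of 0.30. With sgIgfbp5, 10 fell and 1 rose, against 34.3% and 36.5% of all genes, with a median of -0.35. Zmpste24, a protease for prenylated proteins, had log2 fold changes of 0.46 ± 0.04 and -1.09 ± 0.08. For the dolichol genes Srd5a3 and Nus1 they were 0.77 ± 0.08 and 0.22 ± 0.04 at relapse and -0.81 ± 0.08 and -0.77 ± 0.10 with sgIgfbp5.

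The genes for processing and turnover of the SREBP machinery did not move as a block. Of 17, 5 rose and 9 fell at relapse, and 9 rose and 3 fell with sgIgfbp5, with medians of -0.22 and 0.21, and the 5 that rose at relapse were near the 36.6% of all genes. Paqr3, which is reported to tether SCAP at the Golgi, had 5.60, 4.59 and 5.85 TPM in relapsed tumours, against 49.6, 45.6 and 51.8 TPM in control tumours, and 36.0, 34.9 and 36.8 TPM with sgIgfbp5, against 3.51, 7.10 and 3.38 TPM with sgScr. Its log2 fold changes, -3.33 ± 0.09 and 3.01 ± 0.11, ran against those of the enzymes and were larger than those of most of them. Erlin1, a cholesterol-binding protein of the endoplasmic reticulum, differed by -1.86 ± 0.04 and 1.05 ± 0.07, and Ube2g2, a ubiquitin-conjugating enzyme of that compartment, by -1.05 ± 0.04 and 1.57 ± 0.08.

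Other sterol transport genes were divided too, with 3 of 14 higher and 8 lower at relapse, and 7 higher and 6 lower with sgIgfbp5, and medians of -0.30 and 0.23. Among all genes 36.6% were higher and 36.9% lower at relapse, and 36.5% higher and 34.3% lower with sgIgfbp5. The lipoprotein receptor gene Lrp8 had 25.2, 30.5 and 23.0 TPM in relapsed tumours, against 6.91, 7.07 and 6.75 TPM in control tumours, and 2.43, 3.71 and 2.51 TPM with sgIgfbp5, against 33.41, 23.78 and 20.97 TPM with sgScr. The carriers Osbpl2 and Stard5 went the other way, with log2 fold changes of -2.83 ± 0.05 and -2.46 ± 0.06 at relapse and 2.30 ± 0.09 and 1.98 ± 0.08 with sgIgfbp5. Stard5 therefore moved against its relative Stard4. Soat2, the second gene for a cholesterol-esterifying enzyme, is named here after its values were seen. It had 0.924, 0.727 and 0.865 TPM in relapsed tumours, against 47.9, 47.2 and 47.8 TPM in control tumours, and 15.7, 13.1 and 14.4 TPM with sgIgfbp5, against 0.938, 1.07 and 0.747 TPM with sgScr. Its log2 fold changes, -5.67 ± 0.11 and 3.92 ± 0.16, contrast with the small ones of Soat1.

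In the list of oxysterol enzymes and LXR partners and targets, 5 of 11 rose and 4 fell at relapse, and 4 rose and 5 fell with sgIgfbp5, with medians of 0.08 and -0.30, counts near the shares of all genes, 36.6% and 36.9% at relapse and 36.5% and 34.3% with sgIgfbp5. Rxra and Rxrb, which encode the partners of LXR on DNA, differed by -1.23 ± 0.08 and -0.98 ± 0.08 at relapse and by 1.56 ± 0.10 and 1.38 ± 0.09 with sgIgfbp5. Lpcat3, a phospholipid-remodelling LXR target, differed by 1.08 ± 0.06 and -1.02 ± 0.07. The receptor partners and this target moved in opposite directions.

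**Figure D5:**
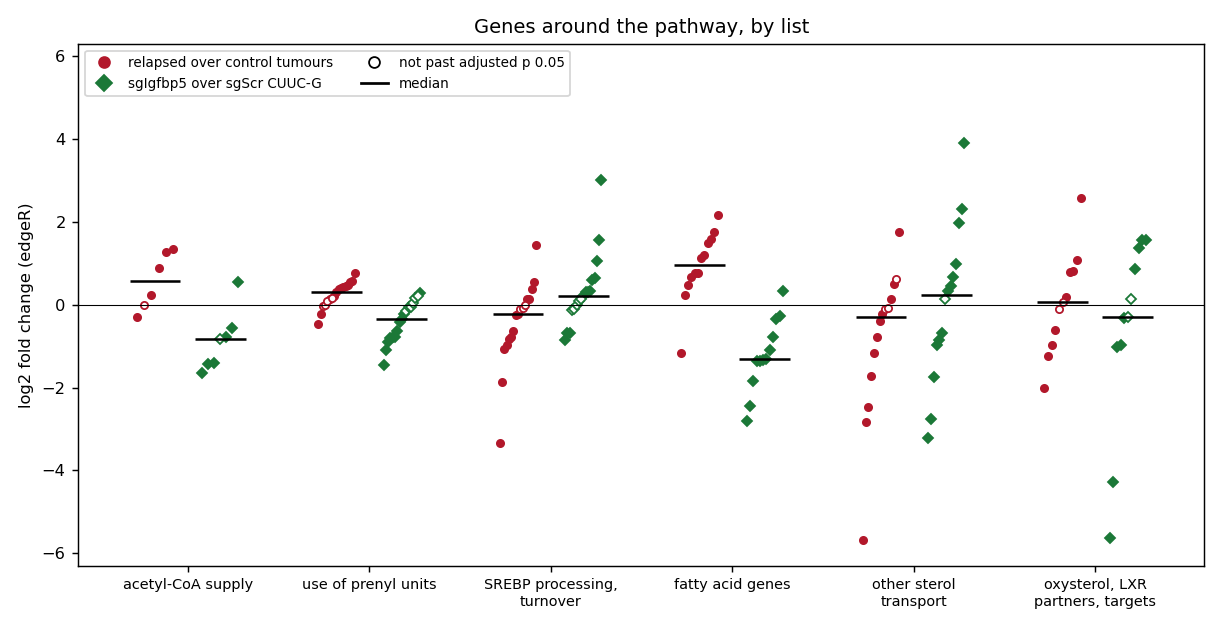
Log2 fold change of each gene of 6 further lists, for relapsed over control tumours (circles) and for sgIgfbp5 over sgScr CUUC-G (diamonds), with open symbols where the adjusted p was not under 0.05 and bars at the medians. Fatty acid genes lie mostly above 0 at relapse and below 0 with sgIgfbp5, while the processing, transport and oxysterol lists spread to both sides of 0.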

How the data were processed

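Poly(A)-selected RNA was sequenced from 18 libraries, of which the 12 of the mouse were used. Per the submitters' processing notes, Salmon was the tool, without a version, and GRCm38 (mm10) is among the builds. Estimated counts and TPM were deposited by the authors. In the tumours they were given for 147828 transcripts and were summed here to 55858 genes; the CUUC-G table gave the same genes with rounded counts. The columns marked mI in that table were taken as sgIgfbp5, since the labels mark the human targeted libraries with hI. The number of columns matched to no sample was 0.

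Counts were rounded and tested with edgeR 4.0.16 (R 4.3.3) within each table, 3 libraries against 3, with TMM scaling, filterByExpr, the robust quasi-likelihood F test, two-sided, and Benjamini-Hochberg adjustment over all genes tested, at 0.05. Standard errors were back-calculated from F as the size of the log2 fold change over its root. Fold changes come from the counts and levels from the TPM, which is scaled for length, so their ratios can differ. Positions and overlaps come from GENCODE M21 on GRCm38, in which 51460 gene identifiers were found without their version.

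On simulated counts, 44 of 50 genes changed 2-fold were recovered in the tumours and 40 of 50 in CUUC-G, with most genes left unchanged. In the data 73.5% and 70.8% of genes were called, so the simulated setting differs from them. Recovery where most genes change was not tested. The members and lists were chosen with earlier results of these data known. Named were all members, Igfbp5, the Y-linked genes and, from each further list, up to 3 genes past the threshold in both comparisons with the smallest larger adjusted p. Acat1, Acat3, Gpam and Soat2 were named outside this rule, after their values were seen. Alternatives were RLE and library size scaling, DESeq2 1.42.0, other count filters, limma 3.58.1 on log2(TPM + 1) and log2(TPM + 0.1), a replicate block, and each library left out.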

Additional observations from a re-analysis of the deposited data

How the results depend on the processing

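The number of members called at relapse was 25 to 28 higher and 1 to 3 lower over all alternatives, and with sgIgfbp5 27 to 28 lower and 3 to 4 higher. Members lower at relapse numbered 3 under limma on log2(TPM + 1) and on log2(TPM + 0.1), against 1 by edgeR, Ggps1 and Nr1h2 being added. At relapse the log2 fold change of Ggps1 turned to -0.34, -0.35 and -0.34 under limma on log2(TPM + 1), log2(TPM + 0.1) and without a TPM filter, to -0.0093 by library size and to -0.0084 without the count filter. It turned to -0.0064 without relapsed replicate 3, to -0.0072 without control replicate 1 and to -0.052 without control replicate 3, and its highest value was 0.0745, without control replicate 2. For Nr1h2 the TPM settings gave -0.17, -0.18 and -0.17, and leaving out control replicate 2 or 3 gave -0.003 and -0.0061, the highest being 0.0599. For Nr1h3 they were -0.086 without a TPM filter, -0.01 without relapsed replicate 3 and -0.23 without control replicate 1, the highest being 1.27, without control replicate 2. With sgIgfbp5, Ggps1 gave 0.0788, 0.0815 and 0.0788 under the TPM settings. Ggps1, Nr1h2 and Nr1h3 at relapse and Ggps1 with sgIgfbp5 were not past the threshold in the edgeR fit of all libraries, and the cause of these turns was not tested. The other members kept their direction in both comparisons under all alternatives run. By library size alone the median log2 fold change over all CUUC-G genes was 0.17, against 0.06 with TMM, and that of the members was -1.63, against -1.74. Counts over all genes moved more. At relapse limma on log2(TPM + 1) called 3518 genes higher and 5129 lower, against 5260 and 5299 by edgeR, and with sgIgfbp5 the calls were 6043 higher and 4389 lower by library size, 5021 and 5251 with RLE and 4834 and 5376 with DESeq2, against 5316 and 4989. With the replicate block, 5208 genes were higher and 5264 lower at relapse, against 5260 and 5299, and 5155 higher and 4882 lower with sgIgfbp5, against 5316 and 4989. Deviations of same-numbered libraries had r of 0.015 to 0.029 in the tumours and -0.162 to 0.113 in CUUC-G. Those of libraries with unlike numbers had r of -0.03 to 0.01 and -0.228 to 0.215. The labels do not say whether same-numbered libraries were prepared together. Deviations from means of 3 libraries cannot decide it. The 3 libraries a group, and low counts of Nr1h3 and Mylip, limit precision.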
